A study of Homo sapiens with 18 samples.

Results

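The genes described here are 10 genes of the desmosome and of the protein scaffold that links it to the cornified envelope, namely DSG2, DSC2, DSC3, JUP, PKP1, PKP2, PKP3, DSP, PPL and EVPL. They were chosen by name, as the rows of the 2 count tables whose Ensembl identifier carries one of these symbols, 10 of 61541 genes listed in each table. RNA-seq had been performed on A549, a human lung adenocarcinoma cell line of wild-type genotype used as a model of non-small cell lung cancer, with 3 libraries in each of 6 groups. Cells were untreated or received sodium propionate (SP), the salt of a short-chain fatty acid, at 5 mM. The first table holds untreated cells at 3 days (control 3 d) with cells given SP for 3 days (SP 3 d) and 12 days (SP 12 d), and the second holds untreated cells at 24 h (control 24 h) with cells given SP for 3 h (SP 3 h) and 24 h (SP 24 h). All groups are one cell line. The study describes its 3 h and 24 h libraries as biological replicates, without saying whether those of a group were separate cultures, and the labels give a replicate number alone, so p-values measure the spread between these libraries. SP 3 h was compared with untreated cells of 24 h and SP 12 d with untreated cells of 3 days, so in these comparisons SP and time in culture cannot be told apart. Both SP groups of a table share its control libraries. The comparisons ask how the genes of one epithelial junction changed with SP over time.

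Desmosomes are spot-like junctions that tie the keratin filaments of neighbouring epithelial cells together. Desmogleins and desmocollins are cadherins that span the membrane and bind those of the next cell. Inside the cell their tails bind plakoglobin (JUP) and the plakophilins, and desmoplakin (DSP) connects this plaque to keratin. Periplakin (PPL) and envoplakin (EVPL) are plakins, relatives of desmoplakin, that can pair with each other and form the first scaffold of the cornified envelope, the cross-linked protein shell of stratified epithelium. Simple epithelia such as those of the lung mainly use DSG2, DSC2 and PKP2, whereas DSC3 and PKP1 are best known from stratified epithelia.

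Libraries held 14187401 to 43765330 counted reads. Levels are given as CPM, the reads of a gene relative to the TMM-scaled total of its library, and, between genes, as RPKM, which is CPM per kilobase of exon. The 5 markers fixed for an epithelial lung line (KRT8, KRT18, KRT7, EPCAM and CDH1) were all above 1 CPM in every group and summed to between 7397 and 16182 CPM. Of 7 keratinocyte markers, KRT5, KRT14, KRT1, KRT6A and KRT13 averaged under 1 CPM in all groups, and the list summed to between 85.1 and 149 CPM. Most of this was KRT10, at group means of 91.1 to 127 CPM. The remaining marker, TP63, averaged 17.2 CPM in control 3 d and 3.84 to 7.39 CPM in the other groups. Of 4 fibroblast markers COL1A1 was above 1 CPM, and the sum lay between 5.66 and 21.5 CPM in the control libraries of 24 h, between 13.2 and 13.6 in those of 3 days, and between 17.9 and 89.2 in the SP libraries. COL1A2, DCN and PDGFRB were under 1 CPM throughout. The leukocyte and endothelial markers PTPRC, CD3E, PECAM1 and VWF were under 1 CPM in all groups and CDH5 in all but control 3 d. CD14 averaged 3.33 CPM in control 24 h, 3.39 in SP 3 h and 15.5 in SP 24 h, and 17.0 in control 3 d, 36.0 in SP 3 d and 18.03 in SP 12 d. The part of these markers in the results below was not tested.

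Libraries of the second table differed in their trend with GC content. The median log2 CPM of the 20% of genes richest in GC, less that of the 20% poorest, each relative to the table's mean, was −0.77, −0.43 and 0.41 in the control 24 h libraries, −0.03, 0.17 and −0.53 in SP 3 h, and 0.10, 0.45 and 0.57 in SP 24 h. Replicate 1 of control 24 h, with the lowest of these values, also had the lowest CPM of its group for JUP, DSP, PPL and EVPL. Without it the log2 fold changes at 24 h were 1.02 for JUP and 1.26 for PPL, which still passed, 0.50 for DSP (edgeR adjusted p = 0.0922), whose call was lost, and −0.093 for EVPL. In the first table the measure stayed between −0.34 and 0.26. Exons of PKP3 (66.7% GC), EVPL (65.2%), JUP (61.5%) and PPL (59.5%) are richer in GC than those of DSP (47.7%), PKP2 (46.5%), DSG2 (41.2%), DSC3 (39.2%) and DSC2 (38.9%). A second fit with offsets for GC content and length was therefore run, and its value or its call is given where it changes a call or moves a fold change by over 1.5 times.

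In untreated cells the plaque protein JUP had the highest level per length, 132 ± 14.8 RPKM in control 3 d (mean ± SD, n = 3) and 51.9 ± 17.6 in control 24 h. In control 3 d it was followed by PKP3 (20.4 ± 0.78) and DSG2 (19.4 ± 1.53), whose libraries overlapped, and then by DSP (14.5 ± 0.51) and EVPL (12.3 ± 0.70). PPL (2.62 ± 0.36) and PKP2 (2.32 ± 0.091) followed and overlapped each other, and the desmocollins DSC3 (1.11 ± 0.085) and DSC2 (0.87 ± 0.039) were lowest. In control 24 h the order was the same except that PKP2 (3.76 ± 0.33) lay above PPL (2.29 ± 0.69), and DSP overlapped EVPL and DSC3 overlapped DSC2. PKP1, a plakophilin of stratified epithelium, had 0 reads in 16 libraries and 1 read in each of 2, a library of SP 12 d and one of SP 24 h. A count of 0 allows up to 3 reads, here 0.0973 to 0.212 CPM by library (counting error only), so PKP1 was at or under the detection limit in all groups and was not tested.

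**Figure D1:**
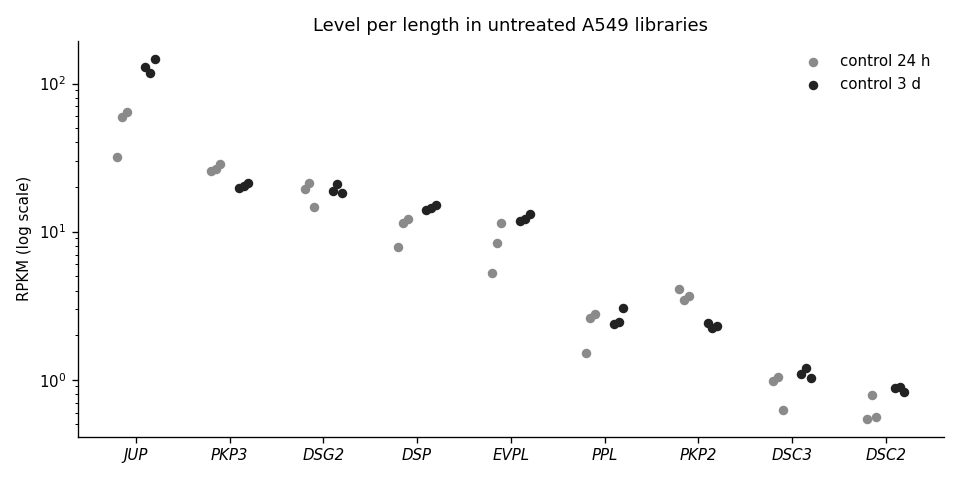
Level of 9 genes in CPM per kilobase of exon (RPKM, log scale) in the 3 untreated libraries of 24 h (grey) and the 3 of 3 days (black), one point per library. JUP lies highest in both sets, at 132 RPKM on average at 3 days, and the desmocollins DSC3 and DSC2 lie lowest, at 1.11 and 0.87.

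The other 9 genes were tested in both tables, among 17377 genes of the second and 17775 of the first, with edgeR's quasi-likelihood test and Benjamini-Hochberg adjustment over all tested genes. A gene is said to have risen or fallen at an adjusted p under 0.05. After 3 h of SP, PKP2 and PPL rose and PKP3 fell, against 7.39% of tested genes that rose and 4.11% that fell. After 24 h DSP, JUP and PPL rose and PKP3 fell, with 16.8% of tested genes higher and 12% lower. After 3 days PKP2 and PPL rose and EVPL fell, with 25.2% of tested genes higher and 23.3% lower. After 12 days DSG2, DSC2, DSP, PKP2 and PPL rose and EVPL fell, 5 and 1 of 9 genes, where 26.4% of tested genes rose and 23.4% fell. The median log2 fold change of the 9 genes was 0.05, 0.18, 0.14 and 0.28 at the 4 times, beside 0.00, −0.01, −0.02 and −0.00 over all tested genes. In bulk RNA fewer cells that express a gene and less RNA per cell cannot be told apart.

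The study itself called a gene at an adjusted p under 0.0001 with at least a 2-fold change. By edgeR PPL met both thresholds at 3 days and PPL and PKP2 at 12 days, 1 and 2 of 9 genes, beside 8.44% and 9.11% of tested genes. At 24 h none of the 9 genes met them and 0.685% of tested genes did. DESeq2 placed PPL past them there, with a log2 fold change of 1.5 and an adjusted p of 4.17e-05. At 3 h none of the 9 genes and 0% of tested genes met them by edgeR. At 3 h 3 of the 9 genes and 4367 of all tested genes had an unadjusted p under 0.05, and DESeq2 called 415 genes at the study's thresholds, none of them among the 9.

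**Figure D2:**
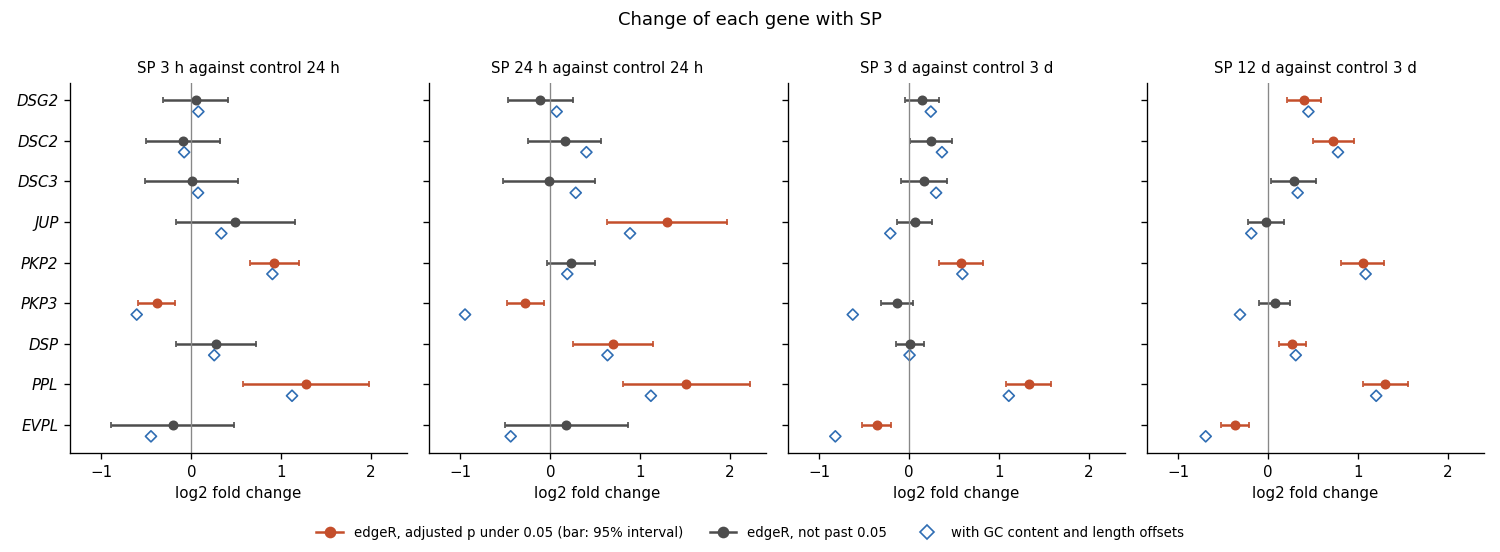
Log2 fold change of 9 genes with SP against the control of the same table, at 3 h, 24 h, 3 d and 12 d from left to right. Circles are edgeR estimates with bars for the 95% interval, red at an adjusted p under 0.05 and grey otherwise, and open blue diamonds are the estimates with GC content and length offsets. PPL lies between 1.28 and 1.51 at every time, and the diamonds of PKP3 and EVPL lie to the left of their circles in each panel.

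Among the desmosomal cadherins, which make the adhesive contact, DSG2 and DSC2 rose after 12 days of SP and none of the 3 passed the test earlier. The 3 genes lie in one cluster on chromosome 18 (GRCh38): DSC3 (ENSG00000134762) at chr18:30989365-31042815 and DSC2 (ENSG00000134755) at chr18:31058840-31102522, both on the minus strand and 16024 bases apart, and DSG2 (ENSG00000046604) at chr18:31498177-31549008 on the plus strand, 395654 bases further on. Their upstream sequences are shown because the 3 genes lie in one cluster. Whether their fold changes differed from each other was not tested. Capitals mark E-boxes (CAGGTG or CACCTG, the letters bound by ZEB and SNAIL repressors), GC boxes (GGGCGG or CCGCCC) and CCAAT boxes (CCAAT or ATTGG), searched on both strands. Each run is written 5′ to 3′ on the strand of its gene, from RefSeq's promoter table (GRCh38.p14), and ends at the outer edge of the GENCODE gene.

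DSG2, chr18:31497927-31498176, plus strand: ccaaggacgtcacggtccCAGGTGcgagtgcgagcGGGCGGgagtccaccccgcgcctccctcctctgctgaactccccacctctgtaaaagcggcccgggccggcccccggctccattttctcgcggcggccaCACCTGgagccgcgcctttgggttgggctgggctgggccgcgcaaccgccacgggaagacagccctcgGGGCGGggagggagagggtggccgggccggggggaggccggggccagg
DSC2, chr18:31102523-31102671, minus strand: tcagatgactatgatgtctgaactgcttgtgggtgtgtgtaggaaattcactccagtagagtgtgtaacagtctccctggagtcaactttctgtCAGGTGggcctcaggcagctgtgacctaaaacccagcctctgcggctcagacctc
DSC3, chr18:31042816-31042992, minus strand: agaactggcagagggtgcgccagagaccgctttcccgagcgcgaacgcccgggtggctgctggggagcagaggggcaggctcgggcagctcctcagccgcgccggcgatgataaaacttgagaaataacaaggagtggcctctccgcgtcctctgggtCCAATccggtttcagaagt

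Over the full 250 bases before the RNA start, DSG2 held 2 E-boxes and 2 GC boxes, DSC2 1 E-box and 1 GC box at the start shown and 2 GC boxes at a second start, and DSC3 1 CCAAT box and neither of the others. Of 35116 promoters of this length, 17.5% held an E-box, 42.6% a GC box and 32% a CCAAT box. Of the other members, DSP held 2 E-boxes and 7 GC boxes counted with overlaps, PKP1 1 GC box, and JUP 2 GC boxes and 1 CCAAT box at one start and 2 E-boxes at another. None of these windows held the letters AACCGGTT of a grainyhead-like (GRHL) site (0.117% of promoters) or TGANTCA of an AP-1 site (6.57%). These matches describe letters only. The table has 6 of the 10 genes; PKP2, PKP3, PPL and EVPL were not matched.

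DSC2, a desmocollin of simple and stratified epithelia, was at 10.998, 11.2 and 10.3 CPM in control 3 d, at 11.7, 12.4 and 14.3 in SP 3 d, and at 17.9, 18.5 and 17.5 in SP 12 d. All SP libraries of both times lay above all control libraries, and all of SP 12 d above all of SP 3 d. The log2 fold change at 12 days was 0.73 ± 0.11 (SE), 1.66-fold (edgeR adjusted p = 4.41e-05), while that at 3 days, 0.24 ± 0.11, did not pass (adjusted p = 0.084). With the GC and length offsets the value at 3 days was 0.36 (adjusted p = 0.0116). At 3 h and 24 h DSC2 overlapped its control, with log2 fold changes of −0.10 (95% interval −0.51 to 0.32) and 0.16 (−0.24 to 0.57).

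DSG2, the main desmoglein of simple epithelia, was at 177, 200 and 173 CPM in control 3 d, at 204, 207 and 196 in SP 3 d and at 263, 249 and 214 in SP 12 d. The 12-day libraries all lay above the control libraries, and the 3-day libraries overlapped them. The log2 fold change at 12 days was 0.40 ± 0.089, 1.32-fold (adjusted p = 0.00156). At 3 days it was 0.14 ± 0.089 (adjusted p = 0.206), and 0.24 with the offsets (adjusted p = 0.011). At 24 h the SP libraries (188, 167 and 132 CPM) and the control libraries (185, 203 and 138) covered the same range. DSG2 shares 186 exon bases with the antisense gene DSG2-AS1, and whether counting used strand is not stated.

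DSC3, the desmocollin best known from stratified epithelium, was at 8.42, 9.21 and 7.92 CPM in control 3 d and at 10.8, 10.0 and 10.2 in SP 12 d. All SP 12 d libraries lay above all control libraries, and the log2 fold change of 0.28 ± 0.12 did not pass (adjusted p = 0.060, 95% interval 0.03 to 0.54). With the offsets it passed at 12 days (0.33, adjusted p = 0.0216) and at 3 days (0.30, adjusted p = 0.0376). At 3 h and 24 h its log2 fold changes were 0.00 and −0.01, with 95% intervals of −0.51 to 0.52 and −0.52 to 0.50.

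JUP (ENSG00000173801, chr17:41754604-41786931), plakoglobin, is a plaque protein of desmosomes that also joins classical cadherins at adherens junctions. It was at 157, 295 and 317 CPM in control 24 h, at 358, 480 and 242 in SP 3 h and at 591, 691 and 614 in SP 24 h. All SP 24 h libraries lay above all control and SP 3 h libraries, whereas SP 3 h overlapped the control. The log2 fold change at 24 h was 1.30 ± 0.30, 2.47-fold (adjusted p = 0.0116), and that at 3 h was 0.49 ± 0.29 (adjusted p = 0.350). The 24 h call of JUP was lost without a filter on low counts. In the first table the control libraries stood at 638, 583 and 728 CPM, SP 3 d at 630, 686 and 718 and SP 12 d at 641, 665 and 608. All 3 groups overlapped there, with log2 fold changes of 0.06 (95% interval −0.14 to 0.26) and −0.03 (−0.22 to 0.17). With the offsets the 3-day value became −0.21 (adjusted p = 0.0334). The tables were scaled separately, and the levels of JUP in the controls of 24 h and of 3 days were not tested against each other.

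Among the plakophilins, plaque proteins that bind cadherin tails and desmoplakin, PKP2 rose at 3 h, 3 days and 12 days, and PKP3 fell at 3 h and 24 h. Only at 3 h did both pass the test. PKP2 (ENSG00000057294, chr12:32790745-32896798), the plakophilin of simple epithelia and heart, was at 42.3, 35.6 and 38.1 CPM in control 24 h and at 65.8, 81.6 and 72.5 in SP 3 h. No library of the first group reached any of the second, and the log2 fold change was 0.92 ± 0.12, 1.90-fold (adjusted p = 0.00197). At 24 h the libraries stood at 41.2, 47.6 and 47.1 CPM and overlapped the control, with a log2 fold change of 0.23 (adjusted p = 0.178, 95% interval −0.04 to 0.50).

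In the first table PKP2 was at 24.9, 23.0 and 23.9 CPM in control 3 d, at 33.2, 38.1 and 35.8 in SP 3 d and at 53.8, 54.9 and 40.4 in SP 12 d. The 3 groups did not overlap. The log2 fold changes were 0.58 ± 0.11 at 3 days, 1.49-fold (adjusted p = 0.000621), and 1.05 ± 0.11 at 12 days, 2.07-fold (adjusted p = 1.54e-06). The GC and length offsets left these values at 0.59 and 1.08. PKP2 shares 424 exon bases with an unnamed non-coding gene on the same strand.

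PKP3 (ENSG00000184363, chr11:392614-404908), the most abundant plakophilin in these libraries, was at 97.3, 99.8 and 109 CPM in control 24 h, at 82.4, 79.0 and 72.9 in SP 3 h and at 84.0, 81.9 and 86.6 in SP 24 h. All SP libraries lay below all control libraries. The log2 fold changes were −0.39 ± 0.093 at 3 h (adjusted p = 0.0261) and −0.28 ± 0.093 at 24 h (adjusted p = 0.0485). The 24 h call was lost when replicate number entered as a block (adjusted p = 0.0653), and with the GC and length offsets the values were −0.61 and −0.95 (adjusted p = 0.00757 and 0.000289). At 3 days the SP libraries (71.8, 74.3 and 65.7 CPM) lay below the control libraries (75.1, 76.6 and 80.9) by a log2 fold change of −0.13 that did not pass (adjusted p = 0.198). At 12 days they stood at 80.1, 88.4 and 75.9 CPM with a value of 0.07 (adjusted p = 0.501). The offsets moved these to −0.63 (adjusted p = 2.74e-05) and −0.31 (adjusted p = 0.00564), so the direction at 12 days turned with the GC correction. Neither early call was firm against single libraries: the 3 h call was lost without control 24 h replicate 2 or 3, any SP 3 h library, or SP 24 h replicate 1 or 3 (adjusted p = 0.0509 to 0.092), and the 24 h call without control 24 h replicate 2 or 3, SP 3 h replicate 1 or 2, or any SP 24 h library (0.0645 to 0.151). Both early calls were also lost without a filter on low counts and in the fit of the 2 groups alone.

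Of the plakins, PPL rose at every time, DSP at 24 h and 12 days, and EVPL fell at 3 and 12 days. PPL (ENSG00000118898, chr16:4882507-4960741), periplakin, was at 11.6, 19.97 and 21.4 CPM in control 24 h, at 37.2, 59.9 and 31.1 in SP 3 h and at 37.8, 62.2 and 51.5 in SP 24 h. Every SP library lay above every control library. The log2 fold changes were 1.28 ± 0.31 at 3 h, 2.42-fold (adjusted p = 0.030), and 1.51 ± 0.31 at 24 h, 2.86-fold (adjusted p = 0.00738).

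In the first table PPL was at 18.2, 19.0 and 23.4 CPM in control 3 d, at 50.8, 46.9 and 54.3 in SP 3 d and at 48.4, 44.1 and 56.9 in SP 12 d. Here too the groups did not overlap with the control, and the 2 SP groups covered the same range. The log2 fold changes were 1.33 ± 0.12, 2.51-fold (adjusted p = 2.03e-07), and 1.30 ± 0.12, 2.47-fold (adjusted p = 2.13e-07). With the GC and length offsets PPL passed at all 4 times, with values between 1.11 and 1.20. The call at 3 h rested on single libraries: without control 24 h replicate 1, the lowest control, the value was 1.03 (adjusted p = 0.0968), and without SP 3 h replicate 2, the highest SP library, it was 0.95 (adjusted p = 0.102). Leaving out control 24 h replicate 2, SP 3 h replicate 1 or SP 24 h replicate 3 also took the 3 h adjusted p past 0.05 (0.0713, 0.0578 and 0.052). The 3 h call of PPL was lost as well without a filter on low counts and in the fit of the 2 groups alone.

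EVPL (ENSG00000167880, chr17:76004502-76027306), envoplakin, was at 86.2, 89.0 and 96.2 CPM in control 3 d, at 71.1, 70.9 and 68.9 in SP 3 d and at 69.2, 70.9 and 70.1 in SP 12 d. All SP libraries lay below all control libraries and close to each other. EVPL fell by 0.36 on the log2 scale at 3 days (SE 0.075, adjusted p = 0.000829) and by 0.37 at 12 days (SE 0.074, adjusted p = 0.000692). The offsets enlarged these falls to −0.82 and −0.70. In the second table the control libraries spread over 38.9, 61.8 and 84.2 CPM, and both SP 3 h (66.2, 61.0 and 33.0) and SP 24 h (65.6, 73.9 and 69.9) overlapped them. The log2 fold changes there were −0.21 (95% interval −0.90 to 0.48) and 0.18 (−0.51 to 0.86), and the offsets turned the second to −0.44 (adjusted p = 0.0404, and 0.0559 with the replicate block).

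DSP (ENSG00000096696, chr6:7541338-7586714), desmoplakin, the link to keratin, was at 107, 155 and 166 CPM in control 24 h, at 185, 202 and 132 in SP 3 h and at 219, 264 and 211 in SP 24 h. SP 24 h lay above both other groups and SP 3 h overlapped the control. The log2 fold change at 24 h was 0.70 ± 0.20, 1.62-fold (adjusted p = 0.0272), and that at 3 h was 0.28 ± 0.20 (adjusted p = 0.446). As without control 24 h replicate 1, the 24 h call was lost without SP 24 h replicate 2 (0.59, adjusted p = 0.106), and it was also lost without control 24 h replicate 2 or SP 24 h replicate 3 (adjusted p = 0.0516 and 0.0505).

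In the first table DSP was at 192, 196 and 206 CPM in control 3 d, at 201, 195 and 202 in SP 3 d and at 245, 243 and 228 in SP 12 d. The 3-day libraries fell within the range of the control and the 12-day libraries lay above it. The log2 fold change was 0.01 at 3 days (95% interval −0.14 to 0.16) and 0.27 ± 0.073 at 12 days, 1.21-fold (adjusted p = 0.00589). DSP shares 81 exon bases with its antisense gene DSP-AS1.

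PPL rose where its partner EVPL did not. The balance within the plakins is described here from the same reads, so it adds no separate evidence of that rise. The ratio of PPL to EVPL reads per exon base was 0.202, 0.204 and 0.233 in control 3 d and 0.285, 0.309 and 0.243 in control 24 h. It was 0.538, 0.939 and 0.901 in SP 3 h, 0.551, 0.805 and 0.704 in SP 24 h, 0.684, 0.632 and 0.754 in SP 3 d and 0.670, 0.595 and 0.776 in SP 12 d. Each of the 12 SP libraries lay above each of the 6 control libraries. As a share of the 3 plakins per exon base, PPL took 10.8% ± 0.71 in control 24 h, 21.7% ± 3.79 in SP 3 h and 19.7% ± 2.84 in SP 24 h, and 8.88% ± 0.74 in control 3 d, 21.4% ± 1.18 in SP 3 d and 19.3% ± 2.43 in SP 12 d (n = 3 each).

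The same measure in the plakophilins gave PKP2 12.3% ± 1.33 in control 24 h, 25.7% ± 2.60 in SP 3 h and 16.6% ± 1.17 in SP 24 h, and 10.2% ± 0.57 in control 3 d, 15.7% ± 1.10 in SP 3 d and 18.3% ± 1.76 in SP 12 d, with PKP3 holding the rest. In the desmocollins DSC2 held 43.96% ± 0.96 in control 3 d, 45.3% ± 0.85 in SP 3 d and 51.6% ± 1.37 in SP 12 d, so that DSC2 exceeded DSC3 per length at 12 days. In control 24 h, SP 3 h and SP 24 h its share was 42.1% ± 5.91, 40.5% ± 5.27 and 44.9% ± 1.85. Over the 12 comparisons of a share with control, two-sided exact permutation tests gave the smallest p that 3 libraries against 3 allow, 0.1, for PPL and PKP2 at all 4 times and for DSC2 at 12 days (0.133 after Benjamini-Hochberg adjustment), so this design cannot pass 0.05. A share shows unequal change only.

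**Figure D3:**
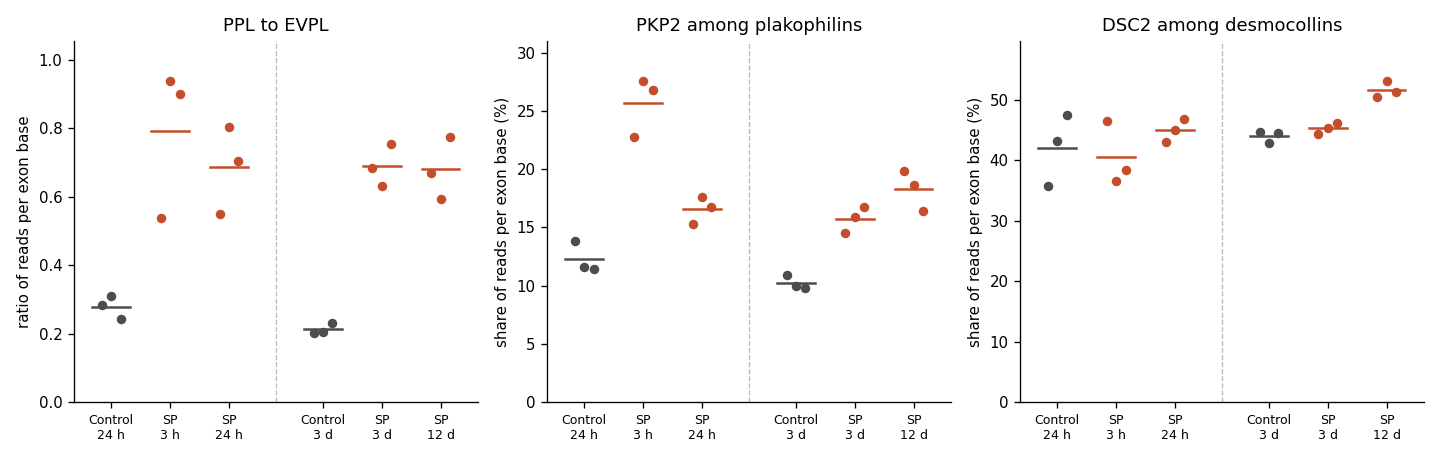
Ratio of PPL to EVPL reads per exon base (left), share of PKP2 among plakophilin reads per exon base (middle, %) and share of DSC2 among desmocollin reads per exon base (right, %), one point per library with a line at the group mean, second table left and first table right of the dashed line. The ratio is 0.202 to 0.309 in the controls and 0.538 to 0.939 with SP, and the share of DSC2 averages 51.6% in SP 12 d against 43.96% in control 3 d.

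Between times of SP, PKP2 was lower at 24 h than at 3 h, by a log2 fold change of −0.69 ± 0.12 (adjusted p = 0.00447), with no overlap. It was the only 1 of 9 genes to differ, where 11.7% of tested genes were higher at 24 h, 8.4% lower and 0.0288% past the study's thresholds. None of the 9 genes was higher in the main edgeR fit, 2 had an unadjusted p under 0.05, and JUP, which stood above SP 3 h in every library at 0.81 ± 0.29 (adjusted p = 0.083), passed with DESeq2. With the GC and length offsets JUP passed too. From 3 to 12 days DSC2 rose by a log2 fold change of 0.48 ± 0.11 (adjusted p = 0.0113), PKP2 by 0.47 ± 0.11 (adjusted p = 0.0152) and DSP by 0.26 ± 0.073 (adjusted p = 0.0392), 3 of 9 genes, beside 4.46% of tested genes that rose, 3.65% that fell and 0.18% past the study's thresholds. None of the 9 fell by edgeR or DESeq2, and 5 had an unadjusted p under 0.05, all with a higher level at 12 days. PKP3, which did not pass in the main fit (adjusted p = 0.147), passed with the GC and length offsets, with and without the replicate block. PPL, EVPL and JUP overlapped between 3 and 12 days, with intervals of −0.26 to 0.21, −0.16 to 0.15 and −0.28 to 0.11. The calls from 3 to 12 days were sensitive to single libraries: none of the 9 genes passed without SP 3 d replicate 1 (adjusted p = 0.083 for DSC2, 0.0949 for PKP2 and 0.128 for DSP) or without SP 12 d replicate 1 (0.0600, 0.108 and 0.197). PKP2 alone passed without SP 3 d replicate 2, and DSC2 alone without SP 3 d replicate 3 or SP 12 d replicate 2. DSP was also lost without control 3 d replicate 1 or 2 (0.0731 and 0.0514).

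Across the 18 libraries, as log2 CPM less the mean of the control of the same table, the genes most like each member by Pearson r, among 16654 genes, were CLIP2 (0.99) and PPARA (0.98) for PPL, TRPM4 (0.99) and PIK3C2B (0.98) for JUP, STX6 (0.98) for PKP2, PRR12 (0.98) and SETD1B (0.98) for EVPL, and PLEKHG6 (0.94) for DSP. For the others they were IGSF3P2 (0.94) for DSG2, FLG-AS1 (0.91) for DSC2, CD226 (0.88) for DSC3 and LRFN4 (0.93) for PKP3. Within the set, JUP and DSP had the highest r, 0.92, followed by DSG2 with DSC3 at 0.85 and DSG2 with DSC2 at 0.72. PPL and EVPL were at 0.07 and DSG2 and EVPL at −0.60. These values describe the libraries, which share their depth, GC trend and control means.

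Of 7 further desmosomal genes, PKP4, PERP and KAZN could be tested, and DSG1, DSG3, DSG4 and DSC1 were too low. KAZN, kazrin, a binding partner of PPL, rose at 3 days (log2 fold change 1.12) and 12 days (1.12, adjusted p = 8.22e-06), from 3.74 ± 0.30 CPM in control 3 d to 8.10 ± 0.61 in SP 12 d. At 24 h it passed at 0.67 (adjusted p = 0.0289), a call lost with the replicate block (0.0525) and with the GC and length offsets, where the value was 0.28 (0.218). PKP4, an armadillo-repeat relative of the plakophilins, fell at 24 h (−0.47), 3 days (−0.36) and 12 days (−0.42). PERP, a membrane protein of desmosomes, fell at 24 h (−0.26, a call lost with the offsets at 0.04) and rose at 12 days (0.33). All 6 of the other plakin and hemidesmosome genes rose at 12 days and 3 at 3 days, where 26.4% and 25.2% of tested genes rose. Their median log2 fold change was 0.65 at 12 days beside −0.00 over all genes. The largest at 12 days were COL17A1 (1.00), ITGB4 (0.76) and ITGA6 (0.72), a transmembrane collagen and an integrin pair of the hemidesmosome, which ties keratin to the basement membrane.

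Of 6 adherens junction genes, 2 rose and CTNNB1 fell at 24 h, and 3 rose at 3 and at 12 days, with a median log2 fold change of 0.23 over the list at 12 days. Of all tested genes, 7.39%, 16.8%, 25.2% and 26.4% rose at 3 h, 24 h, 3 d and 12 d, and 4.11%, 12%, 23.3% and 23.4% fell. CDH1, E-cadherin, rose by 2.23 at 24 h, 1.38 at 3 days and 1.23 at 12 days (adjusted p = 0.00265, 1.45e-09 and 4.33e-09), and AFDN, afadin, by 0.50, 0.44 and 0.37. The 24 h call of AFDN was lost without control 24 h replicate 1 or SP 24 h replicate 2 or 3 (adjusted p = 0.0676, 0.0718 and 0.0517). Of 22 cornified envelope genes 10 could be tested in the second table and 11 in the first, and 1, 4, 6 and 7 rose at 3 h, 24 h, 3 d and 12 d, with none that fell and a median of 0.69 at 12 days. The rise at 3 h was TCHH, a call lost in the fit of the 2 groups alone (adjusted p = 0.0748). SCEL, sciellin, an envelope precursor, rose from 0.99 ± 0.17 CPM in control 3 d to 4.66 ± 0.44 in SP 3 d and 9.50 ± 0.48 in SP 12 d. TCHH, trichohyalin, rose from 0.64 ± 0.098 to 3.78 ± 0.17 and 6.42 ± 1.76. The cross-linking enzyme TGM2, a transglutaminase of many tissues, rose by 1.72 at 24 h and 0.79 at 3 days. FLG, filaggrin, rose by 1.37 at 12 days.

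Of 7 intermediate filament genes, which supply what DSP binds, 4, 5 and 6 rose at 24 h, 3 days and 12 days and 2, 1 and 1 fell, with a median of 0.83 at 12 days. These counts, and those of the factors below, stand beside 7.39%, 16.8%, 25.2% and 26.4% of tested genes that rose at 3 h, 24 h, 3 d and 12 d. The shares that fell were 4.11%, 12%, 23.3% and 23.4%. KRT19 rose by 2.55 and KRT80 by 2.01 at 12 days, KRT8 by 0.87, and KRT81 fell by 1.19 on the log2 scale at 3 days. The counts include VIM, vimentin, which is not a keratin. It fell by 0.65 on the log2 scale at 24 h and rose by 0.34 at 3 days and 0.45 at 12 days. Of 12 transcription factors tested in the second table and 13 in the first that are known to act on desmosomal or envelope genes, 4 and 5 rose at 3 h and 24 h and 0 and 1 fell, and 5 and 6 rose at 3 and 12 days and 6 and 4 fell, with a median of −0.19 at 12 days. GRHL1, a grainyhead-like activator of epithelial genes, rose from 1.27 ± 0.0043 CPM in control 24 h to 6.80 ± 0.47 in SP 3 h and 3.71 ± 0.28 in SP 24 h. OVOL2, a repressor that maintains epithelial identity, rose at all 4 times (adjusted p = 0.018, 0.00235, 5.74e-07 and 2.42e-07), from 0.13 ± 0.059 CPM in control 3 d to 2.12 ± 0.027 in SP 12 d, and had few reads in the controls. Its 3 h call was lost in the fit of the 2 groups alone (adjusted p = 0.0628). Leaving out control 24 h replicate 2 (0.0587) or SP 3 h replicate 2 (0.0871) also removed it. SNAI1, a repressor of junction genes, rose by 2.66 at 3 h, 1.84 at 24 h, 2.80 at 3 days and 1.89 at 12 days. SNAI2, of the same list, rose by 1.41 at 3 days and 2.01 at 12 days and passed at neither 3 h nor 24 h. It had few reads, with 0.39 ± 0.20 CPM in control 3 d and 1.60 ± 0.30 in SP 12 d. Those that fell at both 3 and 12 days were ZEB1, ZEB2, TP63 and PRDM1, and at 3 days also KLF4 and KLF5. ZEB1 and ZEB2, repressors of epithelial genes that bind E-boxes, fell by 0.35 and 0.63 on the log2 scale at 3 days and by 0.51 and 0.82 at 12 days, and ZEB2 by 1.28 at 24 h. TP63, an activator in stratified epithelium, fell by 1.36 and 1.19 at 3 and 12 days. The factors that fell, SNAI2, VIM and the 12-day value of SNAI1 were named after their values were seen and were not recomputed under the alternatives. Exons of KAZN, PKP4, CDH1, SCEL, FLG, TGM2, KRT8, GRHL1, OVOL2, ITGA6 and COL17A1 overlap another gene by 16 to 3452 bases, and their counts carry that limit. The same holds for SNAI2, KLF4, ZEB1, VIM and ZEB2, with 121 to 1322 bases.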

How the data were processed

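RNA-seq counts of A549 cells were deposited as 2 tables of 9 libraries. Per the labels, total RNA was isolated with a miRNeasy kit and libraries were built with a NEBNext Ultra kit. The submitters' processing notes name FastQC, STAR 2.7.9a, featureCounts, R 4.2.1 and DESeq2 1.36.0 with GRCh38, and the authors deposited raw read counts per Ensembl gene. Strand and the handling of reads with several matches were not given in the sources used here.

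Symbols, lengths and GC content came from GENCODE on GRCh38. Each table was fitted on its own with all its libraries and group as the only term, by edgeR 4.0.16 in R 4.3.3 (TMM factors, filterByExpr with a count minimum of 10, robust quasi-likelihood test, Benjamini-Hochberg adjustment over all genes tested). The edgeR test was checked on simulated counts. Depth was 14187401 to 43765330 counts per library, and the common biological coefficient of variation was 0.0996 for the table of 3 and 12 days but 0.199 for that of 3 h and 24 h, so smaller changes could be detected among the later times. Intervals at 95% used the test's degrees of freedom. Alternatives were DESeq2 1.42.0, RLE factors, no filter, offsets for GC content and length, a replicate block, only the groups compared and leaving out each library. Likeness used log2 CPM with a prior count of 2. All 10 members were named, and from each related list the genes with the largest passing changes and a group mean of at least 10 reads.

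The members and lists were chosen with earlier results of these data known. Replicate numbers are shared across groups in the labels. Deviations from the group mean correlated between libraries of the same number by 0.50, 0.17 and 0.50 in SP 24 h against control 24 h. In the other comparisons with control the values were −0.59 to 0.16. Replicate 2 of SP 24 h correlated as much with control 24 h replicate 3 (0.17). The number was therefore read as a possible pairing in SP 24 h against control 24 h alone, and there only as an alternative. All main fits and their p-values used group alone.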

Additional observations from a re-analysis of the deposited data

Results flagged for a closer look

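These results were selected because the level of one gene differed between 2 times of SP, by edgeR's contrast of 2 SP groups that share their control. PKP2 was lower at 24 h than at 3 h by a log2 fold change of −0.69 (adjusted p = 0.00447), and its libraries did not overlap, with 65.8, 81.6 and 72.5 CPM at 3 h and 41.2, 47.6 and 47.1 at 24 h. PKP2 was higher at 12 d than at 3 d by 0.47 (adjusted p = 0.0152), DSC2 by 0.48 (adjusted p = 0.0113) and DSP by 0.26 (adjusted p = 0.0392), each in 3 of 3 libraries. Without SP 3 d replicate 1 or SP 12 d replicate 1, none of these calls from 3 to 12 d was kept. Untreated cells of 12 days or of 3 h were not analysed here, so a longer time in culture and SP cannot be told apart in any of these contrasts.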

How the results depend on the processing

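Of 918 values of the 9 genes under alternatives, 790 kept their direction and side of the test, 50 turned direction, 54 lost a call and 24 gained one, and of 918 values of related genes 877 kept both, 2 turned and 39 lost a call. The causes of the changes below were not tested.

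With the replicate number as a block in a fit of the 2 groups alone, 0 of 9 genes passed at 3 h (and no gene of the whole table), 3 between 3 h and 24 h, and 0 between 3 d and 12 d. In SP 24 h against control 24 h, the block in the fit of the whole table removed the calls of PKP3 (adjusted p = 0.0653) and KAZN (0.0525). It changed no other call of the genes recomputed. The fit of the 2 groups without the block gave 1 gene at 3 h, PKP2, and 2 between 3 h and 24 h, PKP2 and JUP. Without a filter on low counts 1 gene passed at 3 h, PKP2, and 2 at 24 h, DSP and PPL. The calls of PPL and PKP3 at 3 h and of JUP and PKP3 at 24 h were thus lost. DESeq2 gave 2 genes between 3 h and 24 h, and 1 past the study's thresholds at 24 h. With the GC and length offsets, under which 51.8% of all tested genes passed at 3 d, 8 of the 9 genes passed there, or 7 with the block, and 2 between 3 h and 24 h, or 3 with the block. The offsets with the block placed 1 gene past the study's thresholds at 24 h.

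Leaving out 1 library gave 1 to 3 genes past the test at 3 h, 2 to 4 at 24 h, 1 to 2 between 3 h and 24 h, 0 to 5 between 3 d and 12 d, and 1 to 2 past the study's thresholds at 12 d, where PKP2 came to under 2-fold without SP 12 d replicate 1 or 2. Without SP 12 d replicate 3, DSG2 (adjusted p = 0.00178) and PKP3 (0.0214) also passed between 3 d and 12 d. JUP passed between 3 h and 24 h without control 24 h replicate 1 (0.0374) or SP 3 h replicate 2 (0.0482). The calls of PKP3 at 3 h and at 24 h were each lost without any of 7 libraries (adjusted p = 0.0509 to 0.092 and 0.0645 to 0.151).

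Directions that turned belonged mostly to values near 0. With the offsets, and with the offsets and the block, the log2 fold changes at 24 h were 0.071 and 0.070 for DSG2, 0.28 and 0.28 for DSC3, −0.44 and −0.45 for EVPL, and 0.041 and 0.044 for PERP. At 3 d JUP was at −0.21 and −0.21, and at 12 d PKP3 was at −0.31 and −0.32. Between 3 h and 24 h DSC3 was at 0.21 and 0.22 and PKP3 at −0.34 and −0.34, and PPL was at −0.0011 with the offsets alone. Between 3 d and 12 d JUP was at 0.022 and 0.023, PPL at 0.094 and 0.090, and EVPL at 0.13 and 0.13. Without a filter DSC3 was at 0.0057 at 24 h and 0.00064 between 3 h and 24 h, JUP at 9.6e-05 at 12 d, and EVPL at 0.0014 between 3 d and 12 d. DSC3 at 3 h was at −0.017 with DESeq2, −0.018 with RLE factors and −0.0074 in the fit of 2 groups.

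Leaving out 1 library spread the log2 fold changes at 3 h over −0.10 to 0.16 for DSG2, −0.20 to 0.088 for DSC2, −0.20 to 0.13 for DSC3 and −0.47 to 0.082 for EVPL, and at 24 h over −0.26 to 0.020 for DSG2, −0.22 to 0.14 for DSC3 and −0.093 to 0.47 for EVPL. The ranges were −0.015 to 0.037 for DSP and −0.018 to 0.15 for JUP at 3 d, −0.11 to 0.062 for JUP and −0.0068 to 0.10 for PKP3 at 12 d, −0.14 to 0.14 for DSC3 between 3 h and 24 h, and −0.15 to 0.048 for PPL between 3 d and 12 d. The difference from control in the share of DSC2 ranged from −4.79 to 1.06 percentage points at 3 h and from −0.33 to 5.51 at 24 h. With the longest transcript as gene length, the share of PKP2 among plakophilins exceeded control by 18.03, 6.10, 8.01 and 11.5 points at 3 h, 24 h, 3 d and 12 d, against 13.4, 4.28, 5.51 and 8.07 with all exons.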
